A study of Mus musculus with 6 samples.

Results

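The genes described here are the collagens other than type IV: every feature of the deposited count table whose symbol has the form of a collagen alpha chain, with the type IV chains left out. The rule found 33 genes among 22281 features, and 6 type IV chains were set aside. All 33 had at least 1 UMI (unique molecular identifier, 1 count per captured transcript) over the 21706 cells. They were unevenly filled: 14 had at least 1000 UMIs, 18 had at least 100, and 15 had under 100.

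The data are 6 Drop-seq libraries of dissociated adult mouse hearts. Control mice carried Myh6-MCM, a tamoxifen-inducible Cre driven by the promoter of the cardiomyocyte gene Myh6. YAP5SA mice were Yap5SA+/tg; Myh6-MCM, so that the transgene, a YAP in which serines targeted by the Hippo kinases are replaced by alanine, is switched on in cardiomyocytes and not by design in other cells. Both genotypes received tamoxifen. Each genotype has 3 libraries: 2 of tissue, where cardiomyocytes and the other cells were put back together, and 1 enriched for cardiomyocytes by settling. They are called Control tissue-2 and tissue-3, YAP5SA tissue-1 and tissue-2 (the numbers in the deposited cell table), and Control and YAP5SA enriched. Where a group has a value for each of its 3 libraries, the order is enriched, tissue-2, tissue-3 for Control and tissue-1, tissue-2, enriched for YAP5SA. The labels do not say whether libraries came from separate hearts or pools, so the spread between libraries behind the p-values may be technical. In part of the fits that spread was shared over genes, as given under the processing.

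A collagen is a triple helix of alpha chains that is hydroxylated in the endoplasmic reticulum, secreted, trimmed and crosslinked outside the cell. Types I, III and V form the fibrils of the heart's interstitium, types XII, XIV and XVI sit on fibrils (fibril-associated collagens), type VI makes beaded filaments, type VIII a short-chain network, and types XV and XVIII lie in basement membrane zones. In the heart, fibroblasts are the main known source of the fibril-forming types.

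The authors' 17 clusters were grouped by name into cell classes. Cardiomyocytes are CM1 to CM3 and YAP5SAcm, a cluster with 896 of its 995 cells in YAP5SA libraries. Fibroblasts are CF1 to CF4. The marker list of each label led in its class: the 10 cardiomyocyte markers summed to 64961 to 89338 CPM (UMIs scaled to a common total) in Control cardiomyocytes and 29383 to 43297 CPM in YAP5SA cardiomyocytes, and the 11 fibroblast markers to at least 14460 CPM in fibroblasts of every library. Yap1 in cardiomyocytes measured 14.8 to 17.9 CPM in Control and 24.6 to 52.9 CPM in YAP5SA libraries. Whether those reads include the transgene is not given in the sources used here. Libraries held 3382656 to 13483791 UMIs, and 10 cell barcodes occur in 2 libraries.

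The Control libraries differ among themselves in ways that bear on every fibroblast result. Control enriched holds only 10 fibroblasts with 8952 UMIs in all, and their cardiomyocyte markers sum to 35634 CPM against 623 to 6884 CPM in the other libraries. Control tissue-2 and tissue-3 differ several-fold in most abundant fibroblast collagens. Their fibroblasts also differ in the smooth muscle list (5 markers; 1370 against 38.8 CPM), led by Acta2 at 743 against 13.7 CPM, and in the fibroblast list at 14460 against 45518 CPM. Their part in the results was not tested.

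Promoter windows give the sequence context of collagens that passed a test below. RefSeq windows (GRCm38.p6, 250 bases before to 50 after a start) matched 26 of the 33 collagens with 28 windows. Col12a1 and Col5a2 are not among them. The letters GGAATG or their complement CATTCC, a core that TEAD factors, the DNA-binding partners of YAP, are known to read, occur in 4 of these 28 windows (14.3%) and in 4817 of all 32851 windows (14.7%). Shown in capitals where present, they are absent from the windows of Col8a1 (chr16:57754688-57754987, minus strand), Col5a1 (chr2:27886175-27886474, plus strand) and Col5a3 (chr9:20815018-20815317, minus strand), which passed in cardiomyocytes. They occur on each strand in 1 of the 2 Col18a1 windows (chr10:77113656-77113955, minus strand).
Col8a1: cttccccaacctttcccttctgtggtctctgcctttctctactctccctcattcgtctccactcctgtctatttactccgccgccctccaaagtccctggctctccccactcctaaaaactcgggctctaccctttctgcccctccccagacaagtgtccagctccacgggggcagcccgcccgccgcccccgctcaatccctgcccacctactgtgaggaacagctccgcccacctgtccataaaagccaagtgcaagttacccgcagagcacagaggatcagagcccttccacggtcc
Col5a1: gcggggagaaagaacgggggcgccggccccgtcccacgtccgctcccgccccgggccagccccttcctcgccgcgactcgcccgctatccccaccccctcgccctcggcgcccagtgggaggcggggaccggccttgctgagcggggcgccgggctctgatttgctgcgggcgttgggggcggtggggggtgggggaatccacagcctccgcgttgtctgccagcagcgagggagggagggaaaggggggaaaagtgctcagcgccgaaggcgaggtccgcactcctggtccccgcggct
Col5a3: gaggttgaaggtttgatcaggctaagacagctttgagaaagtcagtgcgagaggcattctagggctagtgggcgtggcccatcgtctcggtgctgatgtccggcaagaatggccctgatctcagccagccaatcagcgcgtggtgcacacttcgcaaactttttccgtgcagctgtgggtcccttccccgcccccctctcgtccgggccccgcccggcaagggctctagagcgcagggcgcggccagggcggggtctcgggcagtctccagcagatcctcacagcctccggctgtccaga
Col18a1: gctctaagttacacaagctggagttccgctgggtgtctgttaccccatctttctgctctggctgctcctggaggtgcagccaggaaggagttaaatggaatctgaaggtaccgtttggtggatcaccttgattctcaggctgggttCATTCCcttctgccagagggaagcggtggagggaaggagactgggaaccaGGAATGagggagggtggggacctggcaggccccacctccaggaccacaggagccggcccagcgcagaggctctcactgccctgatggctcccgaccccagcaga

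Across the cell classes, fibroblasts held the highest mean level of most abundant collagens, as the map of mean levels by class shows. Levels are CPM from 3′ UMI counts, not divided by gene length, over libraries with at least 30 cells of the class, and the cell clusters were formed on the same genes, so the order is a description without a test. Col3a1, the chain of type III fibrils, averaged 10496 CPM in fibroblasts (SD 4442), 4862 CPM in epicardial cells (SD 1417), 893 CPM in smooth muscle cells (SD 419) and 115 CPM in cardiomyocytes (SD 90.7). Col1a2 and Col1a1, the chains of type I, averaged 6083 CPM (SD 2358) and 2044 CPM (SD 1380) in fibroblasts and were second highest in epicardial cells at 3534 CPM (SD 794) and 926 CPM (SD 497). The fibroblast libraries spread widely around these means.

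**Figure D1:**
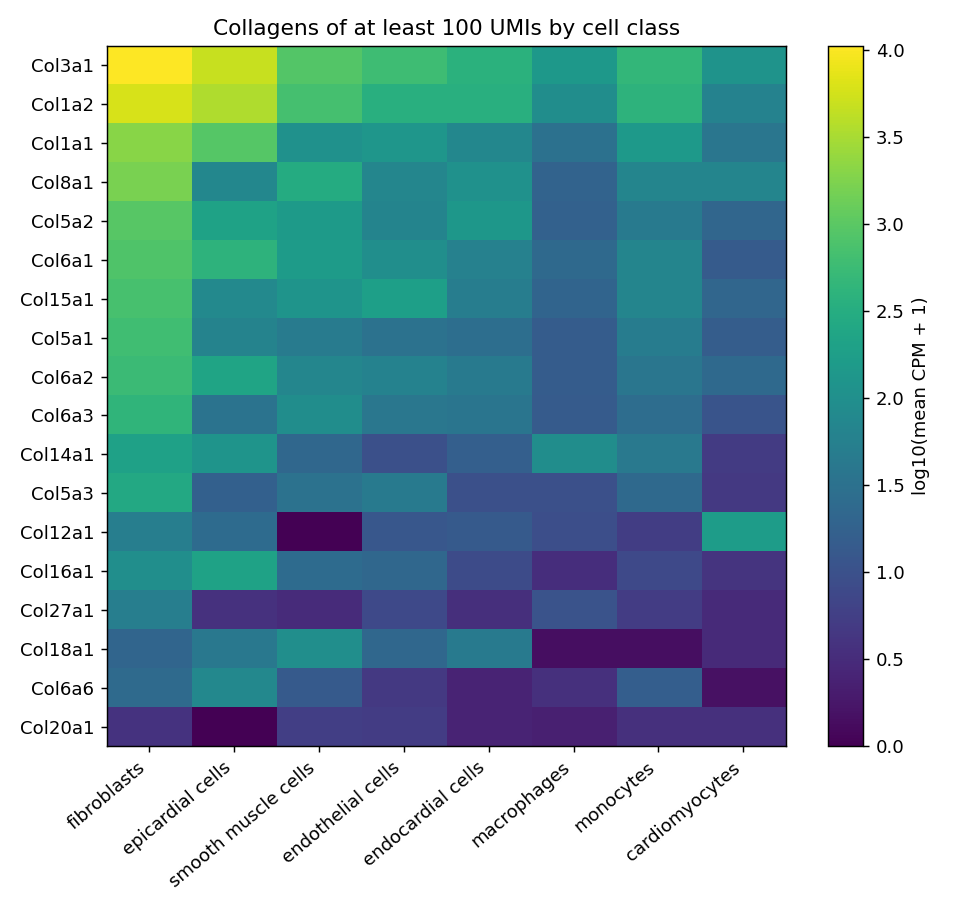
Mean levels of the 18 collagens with at least 100 UMIs (rows) in 8 cell classes (columns), as log10 of mean CPM plus 1 over libraries with at least 30 cells of the class. Fibroblasts are brightest for most rows, while Col12a1 is brightest in cardiomyocytes, Col16a1 and Col6a6 in epicardial cells and Col18a1 in smooth muscle cells.

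A few collagens peaked elsewhere. Col12a1, the fibril-associated chain of type XII, averaged 168 CPM in cardiomyocytes, with 1941 of its 2001 UMIs there in YAP5SA libraries, against 52.2 CPM in fibroblasts. Col16a1, another fibril-associated chain, averaged 204 CPM in epicardial cells and 97.4 CPM in fibroblasts. Its epicardial mean rests on Control tissue-2 (511 CPM, 30 UMIs), since the other libraries with at least 30 epicardial cells lay between 83.6 and 114 CPM. Col18a1, whose C-terminal part is the source of endostatin, averaged 94.4 CPM in smooth muscle cells over 2 libraries, with 43.3 CPM in endocardial cells next. Col15a1, the related multiplexin, was highest in fibroblasts at 720 CPM and second in endothelial cells at 186 CPM. Col23a1, a transmembrane collagen, averaged 40.4 CPM in endocardial cells and under 3 CPM in every other class, from 83 UMIs in all cells.

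Col14a1, a fibril-associated chain, had a large share of its UMIs outside fibroblasts. In YAP5SA libraries macrophages held 1710 of its 3424 UMIs (49.9%) and fibroblasts 1582 (46.2%), whereas fibroblasts held 109153 of 114383 Col3a1 UMIs (95.4%). Macrophage levels were 119, 163 and 104 CPM in the YAP5SA libraries, beside 252, 161 and 173 CPM in the fibroblasts of the same libraries. Control macrophages measured 68.5 CPM in tissue-2 (45 UMIs) and 5.97 CPM in tissue-3 (1 UMI among 148 cells), and Control enriched had no macrophages. The YAP5SA libraries therefore lay above both Control libraries. Per 100 Col3a1 UMIs of the same library, macrophages held 158, 94.3 and 238 Col14a1 UMIs in the YAP5SA libraries and fibroblasts 2.56, 1.10 and 1.502. In Control tissue-2 macrophages held 43.7 and fibroblasts 1.76, while in tissue-3 macrophages held 2.56 (1 UMI) and fibroblasts 5.58, the other way round. Monocytes of the YAP5SA libraries held 41.9, 6.46 and 50, from 13, 25 and 6 Col14a1 UMIs. All 4 macrophage clusters carried it, at 74.6 to 177 CPM over Mac1 to Mac4 of the YAP5SA libraries. The macrophage log2 fold change of 1.47 did not pass (± 0.556 SE, with an adjusted p of 0.450 by edgeR). The 11 fibroblast markers in macrophages summed to 272 and 5413 CPM in Control tissue-2 and tissue-3 and 251 to 385 CPM in YAP5SA libraries. Their part in the result was not tested.

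In cardiomyocytes, 5 collagens were higher in YAP5SA and none lower, among the 14 that had enough counts to be tested. They were Col12a1, Col8a1 (the short-chain network collagen of vessel walls and remodelled heart) and all chains of type V measured, Col5a1, Col5a2 and Col5a3, which nucleate fibrils of type I. Here and below the test is edgeR's quasi-likelihood F test on UMIs summed per library and class, with preparation and genotype as terms. A gene passed at a Benjamini-Hochberg adjusted p under 0.05 over all genes. Each SE given is the absolute log2 fold change divided by the square root of the F statistic, not a separate estimate. The background was high: 26.6% of the 10885 genes tested passed, 13.9% as higher and 12.6% as lower. The 14 collagens had a median log2 fold change of 1.90, against 0.0434 over all genes. In 13 of the 14 all YAP5SA libraries lay above all Control libraries on the unscaled CPM, where 50.6% of all genes did the same. Only collagens with enough counts in at least one genotype were tested, so these 14 do not stand for the 33.

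Col12a1 went from nearly absent to abundant. Its level was 0, 17.3 and 0.137 CPM in the Control libraries (0, 59 and 1 UMIs). In the YAP5SA libraries it was 297, 458 and 237 CPM (315, 577 and 1049 UMIs). The lowest YAP5SA library lay far above the highest Control library, and the 2 low Control libraries held 1 UMI between them. The log2 fold change was 5.59 (± 1.54 SE, with an adjusted p of 0.0452 by edgeR). The call is close to the threshold, and with the low-count filter set by the design matrix the adjusted p was 0.0529.

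Col8a1 rose with it. Its cardiomyocyte level was 0, 11.8 and 3.97 CPM in the Control libraries and 184, 118 and 83.9 CPM in the YAP5SA libraries. The lowest YAP5SA value was several times the highest Control value. The log2 fold change was 4.18 (± 0.785 SE, with an adjusted p of 0.0135 by edgeR).

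The type V chains were scarcer. Col5a1 measured 0.694, 6.76 and 2.73 CPM in the Control libraries and 23.6, 36.5 and 14.4 CPM in the YAP5SA libraries (log2 fold change 2.24 ± 0.481 SE, adjusted p = 0.0171 by edgeR). Col5a2 measured 0.694, 11.5 and 4.51 CPM against 29.3, 49.99 and 25.5 CPM (log2 fold change 2.13 ± 0.588 SE, adjusted p = 0.0373 by edgeR). Both sets of libraries were apart, with Control tissue-2 the highest Control library each time. Col5a3 rested on 3 to 29 UMIs a library, at 0.547 to 1.47 CPM in Control and 4.72 to 7.93 CPM in YAP5SA (log2 fold change 1.88 ± 0.559 SE, adjusted p = 0.0446 by edgeR).

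The most abundant fibroblast collagens did not pass in cardiomyocytes. Col3a1 measured 4.51, 82.6 and 40.9 CPM in the Control libraries and 126, 244 and 191 CPM in the YAP5SA libraries (log2 fold change 1.81 ± 0.828 SE, adjusted p = 0.149 by edgeR). Col1a1 had a log2 fold change of 1.92 (± 0.785 SE, with an adjusted p of 0.114 by edgeR). Col1a2 overlapped between the genotypes, with Control tissue-2 at 54.9 CPM above YAP5SA tissue-1 at 52.9 CPM, and its log2 fold change was 1.09 (± 0.938 SE, with an adjusted p of 0.421 by edgeR). Between these and the called genes lay Col6a3, the long chain of type VI filaments, at 2.46 (± 0.769 SE, with an adjusted p of 0.0537 by edgeR). The other type VI chains, Col15a1, Col14a1 and Col16a1 had log2 fold changes of 1.43 to 2.04 that did not pass.

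**Figure D2:**
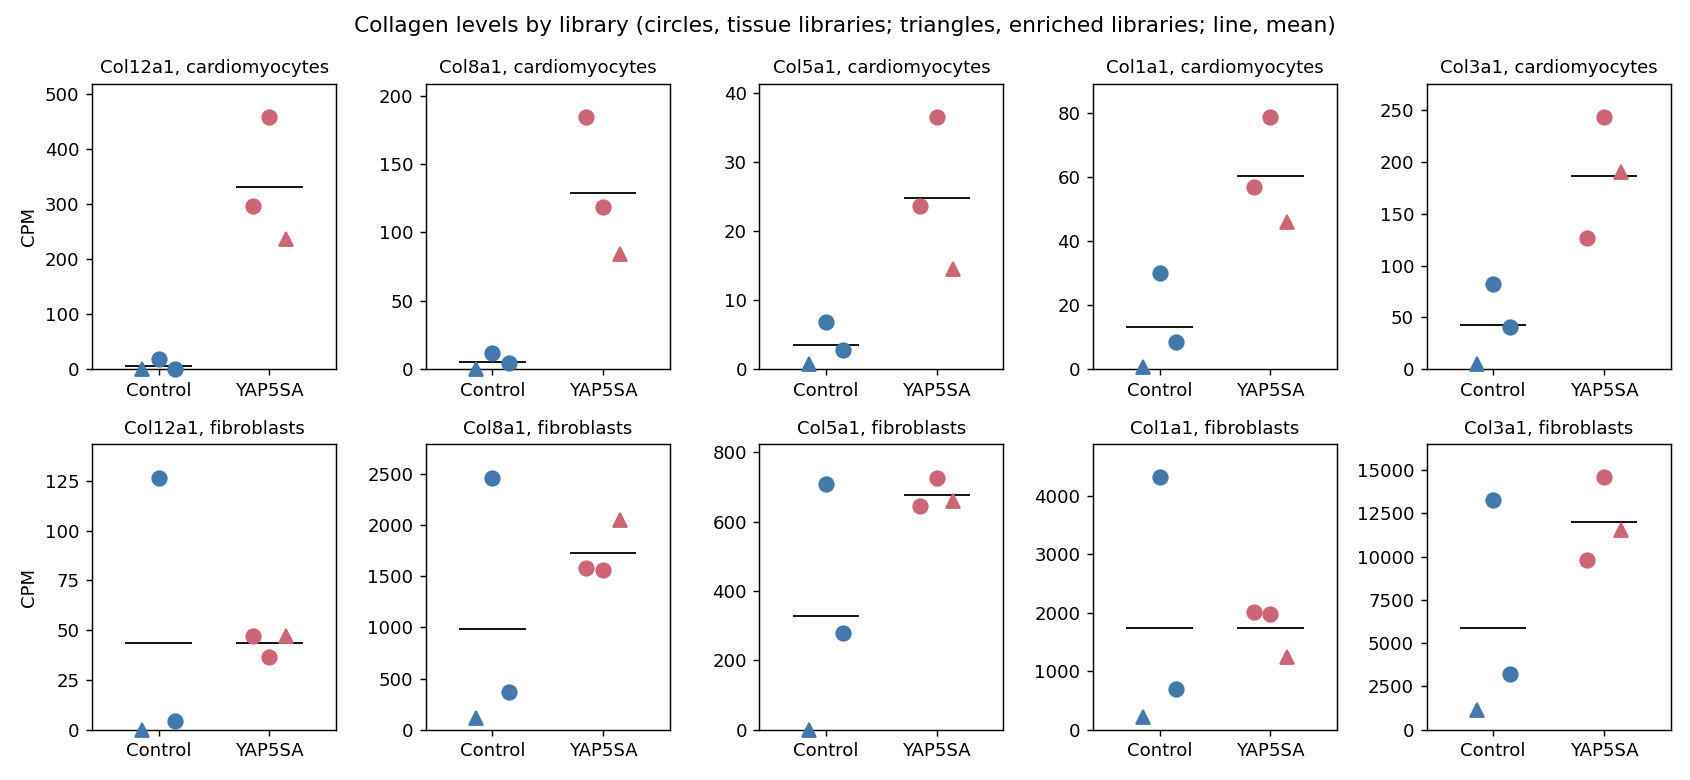
Levels in CPM (y axes start at 0 and differ between panels) of 5 collagens in cardiomyocytes (top) and fibroblasts (bottom), 1 point per library, circles for tissue and triangles for enriched libraries, lines for means of 3. In cardiomyocytes every YAP5SA point lies above every Control point for these 5 genes, while in fibroblasts Control tissue-2 lies far above the other Control libraries.

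How far the cardiomyocyte count holds depends on the libraries. Leaving out YAP5SA tissue-1 or YAP5SA tissue-2 gave 0 calls, leaving out either enriched library gave 1, Control tissue-3 gave 2 and Control tissue-2 gave 10. The share of all genes passing in these fits is not given, so the counts cannot be read as particular to collagens. The log2 fold change stayed positive in every one of these fits for Col12a1 (4.77 to 10.4), Col8a1 (3.45 to 4.81) and Col5a1 (1.83 to 2.62).

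Macrophage, smooth muscle and epicardial markers were higher in the YAP5SA libraries of this class, while the fibroblast markers lay within the Control range. In cardiomyocytes the 11 fibroblast markers, all above 0 in every library, summed to 148 to 625 CPM in Control and 411 to 495 CPM in YAP5SA libraries. The 9 macrophage markers summed to 20.8 to 274 CPM in Control and 371 to 944 CPM in YAP5SA libraries, with Adgre1 and Fcgr1 at 0 in Control enriched. The 5 smooth muscle markers, none at 0, summed to 36.8 to 297 CPM against 2953 to 3472 CPM, of which Acta2 made up 2859 to 3210 CPM and Myh11 35.0 to 77.0 CPM in YAP5SA. The 6 epicardial markers summed to 2.06 to 4.10 CPM against 37.0 to 72.7 CPM, with Lrrn4 at 0 in 3 of the 6 libraries, Krt19 in 1 and Upk3b and Upk1b in 1. Cells with no UMI of a fibroblast or macrophage marker numbered 889, 219 and 364 in the Control libraries (median 2179, 2475 and 2886 UMIs). In the YAP5SA libraries they numbered 99, 45 and 431 (median 1485, 1370 and 1522 UMIs). Each median lay below that of all cardiomyocytes of the library, so the choice also selects shallower cells. In these cells Col12a1 measured 0, 14.7 and 0 CPM in the Control libraries and 291, 274 and 260 CPM in the YAP5SA libraries. Its log2 fold change there was 5.86 (± 1.35 SE, with an adjusted p of 0.0374 by edgeR). Col8a1 also passed at 4.52 (± 1.22 SE, with an adjusted p of 0.0492 by edgeR), so 2 of 6 collagens tested did. The share of all genes passing in these cells is not given. The part of smooth muscle and epicardial cells was not tested.

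The cardiomyocyte difference sat largely in YAP5SAcm. In YAP5SA libraries this cluster held 1740 of the 1941 Col12a1 UMIs and 668 of the 716 Col8a1 UMIs of cardiomyocytes. Without it, no collagen of the 10 tested passed, while 17 of 9399 genes did. Col12a1 in CM1 to CM3 measured 0, 16.6 and 0 CPM in the Control libraries and 51.0, 130 and 67.5 CPM in the YAP5SA libraries (log2 fold change 4.04 ± 1.87 SE, adjusted p = 0.359 by edgeR). The YAP5SA libraries still lay above all Control libraries there. Among the 3 clusters the YAP5SA levels were 12.1 to 95.8 CPM in CM1, 129 to 427 CPM in CM2 and 42.2 to 89.3 CPM in CM3.

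Within YAP5SAcm itself, 9 collagens were tested between the genotypes, and Col12a1 and Col8a1 were higher in YAP5SA. Col12a1 measured 0, 34.2 and 11.9 CPM in the Control libraries, from 16, 50 and 33 cells, and 401, 571 and 392 CPM in the YAP5SA libraries, from 212, 203 and 481 cells. Its log2 fold change was 4.15 (± 0.714 SE, with an adjusted p of 8.46e-05 by edgeR). Col8a1 measured 0, 41.0 and 35.8 CPM against 247, 150 and 148 CPM (log2 fold change 2.21 ± 0.602 SE, adjusted p = 0.0142 by edgeR). Of all 6065 genes tested in the cluster 7.57% passed, 5.08% as higher and 2.49% as lower. The other 7 had log2 fold changes from -1.26 (Col1a2) to 1.26 (Col5a1), none past the threshold, and the median of the 9 was 0.170 against 0.159 over all genes. The count was 1 without Control enriched and 0 without any 1 of the YAP5SA libraries, where 2899 to 3096 genes were tested and none passed. The fibroblast markers of the cluster summed to 492 to 4784 CPM in Control and 447 to 730 CPM in YAP5SA libraries.

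The share of cells with a Col12a1 UMI separated the clusters as well. Cells were thinned to 1000 UMIs, shallower cells were left out, and intervals are exact 95% Clopper-Pearson intervals that cover counting error only. In YAP5SAcm the share was 34.4% (27.5 to 41.9), 40.1% (32.9 to 47.6) and 34.7% (30.3 to 39.3) in the YAP5SA libraries, with 32, 21 and 40 cells left out. In CM1 to CM3 it was 4.63% (1.52 to 10.5), 15.9% (7.88 to 27.3) and 10.1% (7.44 to 13.2), with 23, 16 and 76 cells left out. For a count of 0, the limit of 3 cells of the total is given with the upper Clopper-Pearson bound. Control CM1 to CM3 had 0 of 1033 cells in enriched (3 cells would be 0.290%, upper bound 0.356%), 1.36% in tissue-2 (0.548 to 2.78) and 0 of 1130 cells in tissue-3 (0.265%, upper bound 0.326%), with 19, 11 and 10 cells left out. The few Control cells of YAP5SAcm had 0 of 16, 0 of 45 and 0 of 26, for which 3 cells would be 18.8%, 6.67% and 11.5% and the upper bounds are 20.6%, 7.87% and 13.2%.

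For comparison, macrophages, not known as a main source of type XII, had 1.09%, 0.931% and 1.19% in the YAP5SA libraries (440, 532 and 565 cells left out), below the interval of every YAP5SAcm share. The CM1 to CM3 interval of YAP5SA tissue-1 overlaps that of its macrophages (0.610 to 1.79). Control macrophages had 1 of 281 cells in tissue-2 (0.356%, 0.00901 to 1.97), with 320 cells left out. In tissue-3 they had 0 of 79 (3 cells would be 3.80%, upper bound 4.56%), with 69 left out. The shares in Control were thus lower too, on few cells. The macrophage log2 fold change of Col12a1 was 1.03 (± 0.786 SE, adjusted p = 0.738 by edgeR). Unthinned shares were 59.4%, 64.5% and 66.9% in YAP5SAcm of the YAP5SA libraries (median 2108, 2690 and 3251 UMIs a cell), 0%, 6% and 3.03% in its Control cells (median 1586, 1988 and 1806 UMIs), and 1.93%, 1.93% and 1.86% in macrophages (median 1366, 1830 and 1213 UMIs). YAP5SA fibroblasts had 4.50%, 4.10% and 3.93% thinned (369, 225 and 384 cells left out) and 6.84%, 7.497% and 6.49% unthinned. Unthinned CM1 to CM3 had 0%, 8.94% and 0% in the Control libraries (median 2211, 5045 and 4694 UMIs) and 8.40%, 27.8% and 19.1% in the YAP5SA libraries (median 1666, 2515 and 2229 UMIs). Before thinning, Control tissue-2 thus lay above YAP5SA tissue-1. Control fibroblasts spread from 0.559% in tissue-3 to 10.9% in tissue-2 (236 and 405 cells left out).

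Set beside fibroblasts of the same library, YAP5SAcm had far less collagen of nearly every kind and more Col12a1. Clusters were formed on these genes, so the comparison is a description with no test. Collagens made up 0.111%, 0.147% and 0.144% of the UMIs of YAP5SAcm in the YAP5SA libraries, and 2.46%, 2.98% and 2.58% of those of fibroblasts. Col12a1 was the exception, at 8.56, 15.7 and 8.36 times the fibroblast level in the same 3 libraries. The ratio held against each fibroblast cluster, with a lowest value of 7.02 (CF3, enriched). The largest, against CF1 of the enriched library, rests on 1 Col12a1 UMI in 75 CF1 cells.

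For all other collagens with at least 1000 UMIs the fibroblast level was higher in every library. Col8a1 was the nearest, at 6.41, 10.4 and 13.8 times higher in fibroblasts. Col1a1 was 29.3, 21.5 and 15.6 times higher, Col3a1 78.8, 54.3 and 38.0 times and Col1a2 128, 57.1 and 31.9 times. The 2 chains of type I therefore did not keep the same ratio between the classes.

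**Figure D3:**
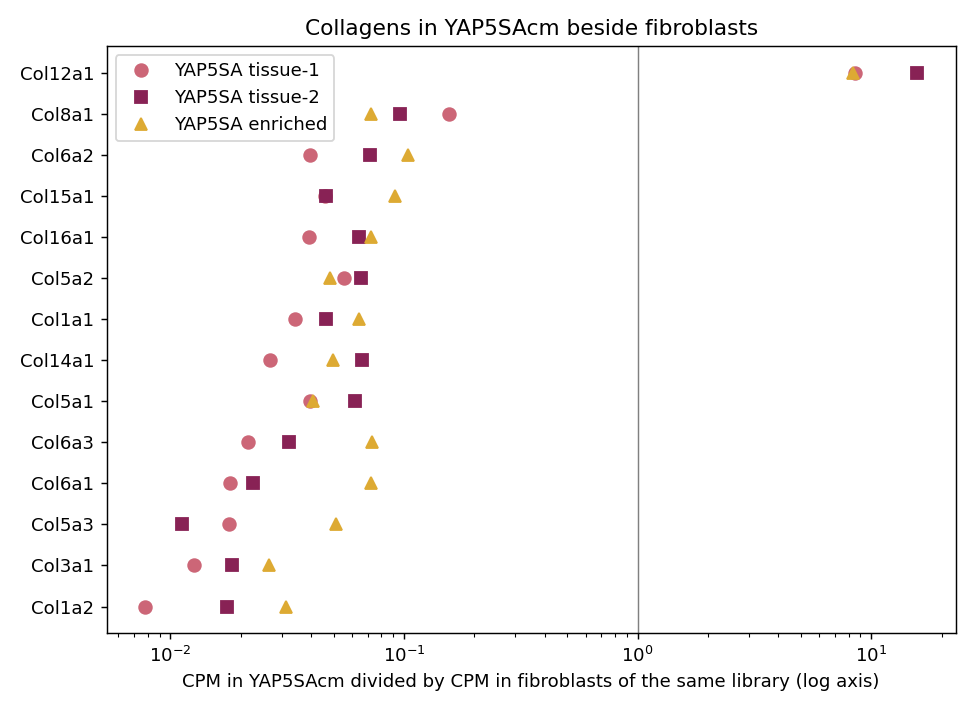
CPM in YAP5SAcm divided by CPM in fibroblasts of the same library (x, log axis) for the 14 collagens with at least 1000 UMIs, 1 symbol per YAP5SA library. Col12a1 is the only gene of the 14 to the right of 1, at 8.36 to 15.7, and Col1a2 and Col3a1 lie furthest left.

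The make-up of the collagen UMIs differed accordingly. In YAP5SAcm of the YAP5SA libraries, Col12a1 took 36.1%, 38.8% and 27.1% of all UMIs of the 33 collagens, and Col8a1 22.2%, 10.2% and 10.3%. Col3a1 took 11.2%, 18.3% and 21.0%. In fibroblasts of those libraries Col12a1 took 0.190%, 0.122% and 0.181%, and Col3a1 39.9%, 49.1% and 44.6%. By subfamily, fibril-forming collagens were 28.7% to 46.3% of the collagen UMIs of YAP5SAcm and 78.0% to 83.8% of those of fibroblasts. Fibril-associated collagens were 28.6% to 40.8% against 1.02% to 1.70%. In the Control cells of YAP5SAcm, with 4, 78 and 109 collagen UMIs, fibril-forming collagens were 67.9% and 78.0% in tissue-2 and tissue-3.

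**Figure D4:**
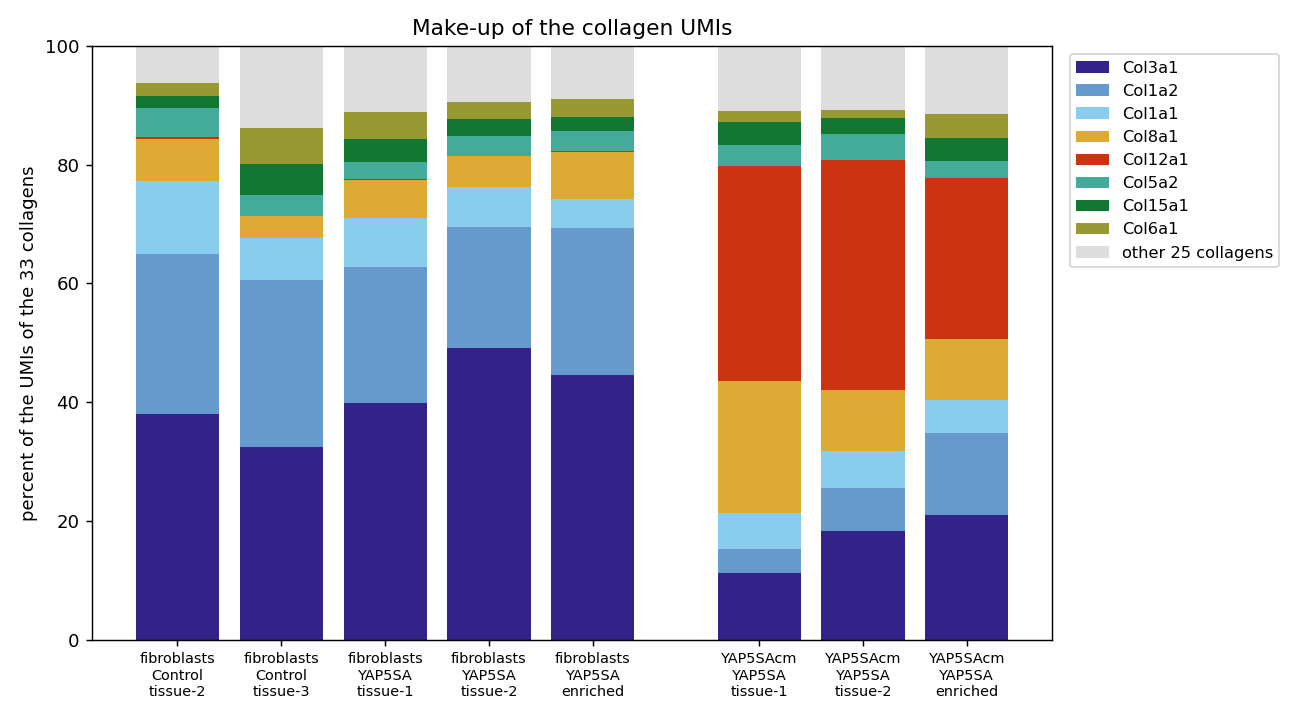
Share of each of 8 collagens, and of the other 25 together, in the UMIs of the 33 collagens (y, percent) for fibroblasts of 5 libraries and YAP5SAcm of the 3 YAP5SA libraries. Col12a1 (red) takes 27.1% to 38.8% of the YAP5SAcm bars and under 0.4% of the fibroblast bars.

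In fibroblasts, where most collagen UMIs lie, 1 of 19 collagens tested passed, and it was among the rarer ones. Col18a1 measured 0, 10.1 and 4.57 CPM in the Control libraries (0, 24 and 2 UMIs) and 43.4, 23.0 and 16.3 CPM in the YAP5SA libraries (89, 107 and 30 UMIs). The log2 fold change was 1.90 (± 0.582 SE, with an adjusted p of 0.0489 by edgeR). Of 10725 genes 2.23% passed, 1.45% as higher and 0.774% as lower. Col18a1 passed in 3 of 17 alternatives: with no low-count filter, without Control tissue-2 and without Control tissue-3. The number of collagens was 3 without Control tissue-2, 2 without Control tissue-3 and 0 without any other library. The share of all genes passing in those fits is not given, so these counts are not particular to collagens.

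The major fibrillar collagens overlapped between the genotypes in fibroblasts. Col1a1 measured 223, 4310 and 694 CPM in the Control libraries and 2004, 1975 and 1236 CPM in the YAP5SA libraries. Col3a1 measured 1117, 13293 and 3234 CPM against 9825, 14599 and 11530 CPM. Col8a1 measured 112, 2465 and 372 CPM against 1581, 1560 and 2049 CPM. In each case Control tissue-2 reached or passed YAP5SA libraries while the other Control libraries lay below all of them. The log2 fold changes were 0.55 (SE 0.954), 1.61 (SE 1.19) and 1.15 (SE 0.943), each with an edgeR adjusted p of 0.99998.

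Other abundant fibroblast collagens, Col1a2, Col5a2, Col6a1, Col15a1, Col5a1, Col6a2 and Col6a3, had log2 fold changes of 0.56 to 1.63, none past the threshold. The lowest adjusted p among them was 0.454, for Col6a3. The median over the 19 collagens was 0.907 against 0.0935 over all genes. In 6 of 19 the genotypes did not overlap, all higher, where 11.7% of all genes did the same. Both values include Control enriched with its 10 fibroblasts. In CF1 to CF4, fitted without it, Col3a1 had log2 fold changes of 0.38 to 0.66 and Col1a1 of -0.53 to -0.09. Col6a3 had 0.40 to 1.58 there. Summed over all 33, collagens made up 0.402%, 3.50% and 0.999% of fibroblast UMIs in the Control libraries and 2.46%, 2.98% and 2.58% in the YAP5SA libraries. Control tissue-2 was thus the highest of all 6 libraries and tissue-3 less than any YAP5SA library.

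Col12a1 in fibroblasts showed the same split. It measured 0, 126 and 4.57 CPM in the Control libraries (0, 299 and 2 UMIs) and 46.8, 36.4 and 46.8 CPM in the YAP5SA libraries. The YAP5SA libraries agreed closely and lay between the 2 Control tissue libraries. The log2 fold change was -0.60 (± 0.537 SE, with an adjusted p of 0.99998 by edgeR), and 3.01 without Control tissue-2.

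In the fibroblast clusters, CF4 had calls. Of 16 collagens tested, Col12a1 was lower in YAP5SA at a log2 fold change of -1.55 (± 0.445 SE, with an adjusted p of 0.0252 by edgeR) and Col18a1 higher at 2.24 (± 0.683 SE, with an adjusted p of 0.0433 by edgeR), against 0.648% and 1.98% of 7255 genes in those directions and 2.63% in all. Control enriched has no CF4 cell, so the preparation term took up YAP5SA enriched and the genotype values compare tissue libraries alone. Control tissue-3 has 12 CF4 cells with 0 Col12a1 UMIs, so the Control level rests on tissue-2, at 148 CPM. YAP5SA tissue-1 and tissue-2 measured 52.0 and 41.9 CPM, and YAP5SA enriched 50.4 CPM. Without Control tissue-2, which leaves only Control tissue-3, the Col12a1 value turned to 7.68. The count of collagens was 0 without YAP5SA tissue-1 or tissue-2, and the share of all genes passing there is not given.

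In CF1 (13 collagens tested), CF2 (15) and CF3 (17), 1, 2 and 3 collagens had an unadjusted edgeR p under 0.05. Over all genes, 115 of 2292, 355 of 5816 and 462 of 9012 did. No collagen passed in these clusters, where 0 of all genes passed, and DESeq2 called no collagen there. Without Control tissue-2 or tissue-3 only 1 Control library remained in these clusters, so counts from those fits are not read here.

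The genotype difference itself was compared between cardiomyocytes and fibroblasts of the same libraries, with the library as a block. It was larger in cardiomyocytes for Col12a1 and Col8a1. The difference of log2 fold changes was 5.30 for Col12a1 (± 0.649 SE, with an adjusted p of 2.71e-13 by edgeR) and 2.68 for Col8a1 (± 0.611 SE, with an adjusted p of 0.000404 by edgeR). Both passed in all 12 alternatives, with values of 4.97 to 6.84 and 1.97 to 3.41. These p-values rest on a spread shared over genes, not on the spread of each gene. Across 12367 genes 17.4% passed, 10.4% with the larger value in cardiomyocytes and 6.97% in fibroblasts, and of the 19 collagens tested 3 did.

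The third was Col9a2, a fibril-associated chain of cartilage, at 4.59 (± 1.64 SE, with an adjusted p of 0.0352 by edgeR). Its counts were low: 0 UMIs in cardiomyocytes of all Control libraries and 8, 2 and 8 in the YAP5SA libraries, so the fitted value depends on the prior count. Without Control tissue-2 it turned to -0.97. It also lost the call without Control enriched, YAP5SA tissue-1 or YAP5SA tissue-2. Col3a1 and Col1a2 had differences of 0.03 (SE 0.574) and 0.04 (SE 0.574). With scaling by library totals alone 13 collagens passed, where the median difference over all genes was 0.734.

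**Figure D5:**
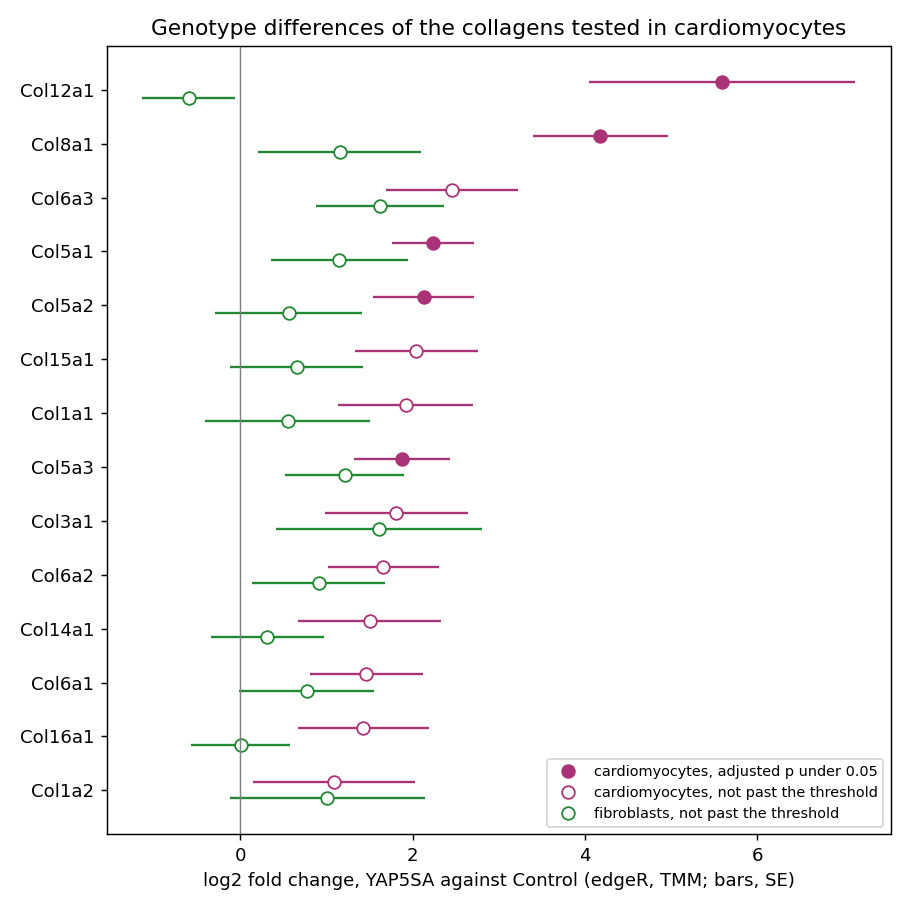
Log2 fold changes, YAP5SA against Control (x), with SE bars for the 14 collagens tested in cardiomyocytes (purple) beside the same genes in fibroblasts (green). The SE is derived from the F statistic, and filled points passed an adjusted p of 0.05 by edgeR. Col12a1 stands at 5.59 in cardiomyocytes and -0.60 in fibroblasts, while Col3a1 stands at 1.81 and 1.61, neither of which passed. Over the alternatives these Col3a1 values ran from 0.717 to 2.67 in cardiomyocytes and from 0.507 to 2.69 in fibroblasts.

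Genes that make and handle collagen were read from 7 lists. In cardiomyocytes, 13.9% of all genes were higher and 12.6% lower. Of the 17 tested genes of hydroxylation, glycosylation and folding, 6 were higher and none lower. Plod2, a lysyl hydroxylase of collagen telopeptides, measured 22.9, 56.1 and 19.96 CPM in the Control libraries and 641, 609 and 351 CPM in the YAP5SA libraries (log2 fold change 3.22 ± 0.388 SE, adjusted p = 0.00403 by edgeR). P4ha1, a catalytic subunit of prolyl 4-hydroxylase, and Fkbp10, a collagen chaperone, had log2 fold changes of 1.66 and 2.72 (edgeR, adjusted p = 0.0184 and 0.0185). P3h1, P3h2 and Colgalt1 were the other 3. Both sets of libraries were apart for all 6, where 50.6% of all genes tested had every YAP5SA library above every Control library.

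Of 5 crosslinking genes tested, 3 were higher. Lox, the lysyl oxidase that starts collagen crosslinks, measured 0, 7.34 and 0.410 CPM in the Control libraries and 366, 413 and 125 CPM in the YAP5SA libraries (log2 fold change 6.44 ± 1.003 SE, adjusted p = 0.00925 by edgeR). Tgm2, a transglutaminase, and Loxl4, a lysyl oxidase relative, had log2 fold changes of 2.58 and 3.43 (edgeR, adjusted p = 0.0310 and 0.0166). Receptors gave 2 of 6, Ddr1, a collagen-binding kinase, at 2.41 and the integrin chain Itga1 at 1.75 (edgeR, adjusted p = 0.0162 and 0.0142). Fibril assembly gave 1 of 11, Emilin1, an elastic fibre protein, at 2.13 (edgeR, adjusted p = 0.0320).

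Breakdown gave 1 of 8, the inhibitor Timp2 at 3.81 (edgeR, adjusted p = 0.00215), where 13.9% of all genes tested were called higher. Timp2 inhibits matrix metalloproteinases. It measured 19.8, 44.4 and 32.0 CPM in the Control libraries and 935, 812 and 583 CPM in the YAP5SA libraries. Of 10 genes of secretion from the endoplasmic reticulum tested, Sar1b, the GTPase of COPII vesicles, and Ctage5, a cargo receptor partner for large collagen carriers, were lower at -1.54 and -1.35 (edgeR, adjusted p = 0.0128 and 0.0267). None of 4 propeptide-cleaving genes passed in edgeR, and 2 had an unadjusted p under 0.05, as did 4459 of all 10885 genes. The libraries of the genotypes were apart for Sar1b and overlapped for Ctage5, where YAP5SA enriched (77.4 CPM) lay above Control tissue-2 (72.6 CPM). In fibroblasts no tested member of the 7 lists passed in edgeR, where 2.23% of all genes did. There 1 crosslinking gene had an unadjusted edgeR p under 0.05, as did 852 of all 10725 genes. Control tissue-2 fibroblasts held 1270 CPM of Lox against 25.1 CPM in tissue-3.

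Monocytes were not tested between the genotypes. The 5 other classes gave no call in edgeR, among collagens or among all genes tested. Control enriched was not in the macrophage, epicardial and CF1 to CF4 fits, where it had under 10 cells. In those fits the preparation term took up YAP5SA enriched, so the genotype values compare tissue libraries alone. Of 14 collagens tested in macrophages, 10 in endothelial cells, 3 in endocardial cells, 8 in epicardial cells and 2 in smooth muscle cells, 4, 1, 0, 0 and 0 had an unadjusted edgeR p under 0.05, and DESeq2 called none. Over all genes, in the same order, 1184 of 11800, 543 of 5336, 107 of 1988, 108 of 1873 and 49 of 995 had such an edgeR p. Medians of the log2 fold changes were -0.91, 0.34, -0.62, -0.27 and -0.40. In macrophages 5 of the 14 lay lower and 2 higher without overlap, against 11.4% and 25.2% of all genes. No tested collagen was apart in endothelial cells (6.93% of genes higher, 6.52% lower) or endocardial cells (7.75% higher, 3.37% lower). Among collagens not tested in endocardial cells, Col12a1 was apart as higher (5 UMIs in all). Col23a1 (54 UMIs) and Col20a1 (5 UMIs) were apart as lower. Without Control tissue-2 or tissue-3 only 1 Control library remained in the macrophage fit, so counts from those fits are not read here.

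Few of the 15 collagens under 100 UMIs could be tested. Col9a2 and Col26a1 passed the filter in fibroblasts and in the comparison of classes, and Col24a1 was left out of the tests since its 7 UMIs occur under only 1 way of naming overlapping genes. Those 15 ranged from 5 UMIs (Col22a1) to 95 (Col9a2) in all cells, and no difference between the genotypes was detectable for most of them at this depth. Col6a5, with 94 UMIs, averaged 90.1 CPM in epicardial cells and at most 3.8 CPM in any other class. Col6a6, at 220 UMIs, averaged 74.8 CPM in epicardial cells, and in fibroblasts its 86.8 CPM in Control tissue-3 stood apart from 0 to 10.7 CPM elsewhere.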

How the data were processed

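Drop-seq counts of 6 libraries (3 Control, 3 YAP5SA) were analysed. Per the submitters' processing notes, Picard, STAR and Seurat 2.3.4 were used, with no settings, build or annotation given. The deposited raw table holds UMI counts of 22281 features, all whole numbers, and a deposited cell table (unit other: text labels) gives each cell's library and cluster. The deposited scaled table was not used. Whether doublets were removed upstream is not given in the sources used here, and no doublet caller was run.

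Overlapping genes share 1 hyphenated name in 4 libraries and not in the other 2, a difference that no fit held as a term. These 803 names were pooled with the genes they contain (21264 features), and 1263 features with counts under 1 naming way alone were not tested. Col3a1 had 36 of 150584 UMIs under a joined name. Col20a1 was merged with an overlapping neighbour (24 of 108 UMIs under its own name) and is uncertain.

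Counts were summed per library and class or cluster, with at least 10 cells a library, and fitted by edgeR 4.0.16 under R 4.3.3 (TMM scaling, filterByExpr by genotype, robust quasi-likelihood F test, terms for preparation and genotype). DESeq2 1.42.0 was an alternative. Positive values mean higher in YAP5SA. For most collagens in the fits of fibroblasts, CF4 and cardiomyocytes minus fibroblasts, the p-value came from a spread shared over genes. Such a p-value does not measure how far the libraries of that gene lie apart. CPM values use unscaled library totals. Over all genes in cardiomyocytes the median log2 value was 0.0434 with TMM and 0.881 with totals alone, so signs are relative to the scaling.

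The fits were tested on simulated data. Library totals (3382656 to 13483791 UMIs) and the number of libraries limit precision. Where no UMI was seen, up to 3 were allowed for. Named were every collagen that passed in any fit, the 10 highest in fibroblasts, the highest in each other class, the 5 with most UMIs in cardiomyocytes, and up to 3 called genes per pathway list. Col14a1, Col16a1, Col23a1, Col6a5 and Col6a6 were added after their values were seen. The members and lists were chosen with earlier results of these data known.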

Additional observations from a re-analysis of the deposited data

Results flagged for a closer look

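For 3 collagens the genotype difference in cardiomyocytes differed from that in fibroblasts of the same libraries by the class by genotype term (edgeR, adjusted over 12367 genes, of which 17.4% passed). The difference of log2 fold changes was 5.30 for Col12a1 (higher in YAP5SA cardiomyocytes in 3 of 3 libraries, overlapping in fibroblasts), 2.68 for Col8a1 (likewise) and 4.59 for Col9a2. The Col9a2 value rests on 18 UMIs in YAP5SA cardiomyocytes and 0 in Control, and its sign turned without Control tissue-2.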

How the results depend on the processing

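The number of collagens passing moved by more than 1.5 times under these settings. In cardiomyocytes, 5 became 12 with scaling by library totals alone, 9 with DESeq2, 2 with names as deposited, 1 in tissue libraries alone, 0 without the cluster YAP5SAcm and 2 in cells without fibroblast or macrophage markers. It ran from 0 to 10 with 1 library left out, and every call was higher in YAP5SA. In fibroblasts, 1 became 0 with RLE size factors, library totals alone, DESeq2, the design-matrix filter (chosen after seeing the data), names as deposited, no covariate, tissue libraries alone, at least 30 cells, without CF4 and in cells without macrophage markers. It became 3 with no filter (1 higher, 2 lower), and 0 to 3 with 1 library left out. In CF4, 2 became 1 with RLE size factors, 0 with DESeq2, 1 with the design-matrix filter and 0 to 5 with 1 library left out. In YAP5SAcm, 2 became 0 to 2. In macrophages 0 became 0 to 4, and in CF1, CF2 and CF3 0 became 0 to 6 each. For cardiomyocytes minus fibroblasts, 3 became 13 with library totals alone. With library totals alone the median over all genes was 0.881 in cardiomyocytes and 0.734 for cardiomyocytes minus fibroblasts. The share of all genes passing under each alternative is not given here, so these counts cannot be read as particular to collagens. Of 619 values of single collagens under the alternatives, 492 kept sign and side of the threshold, 73 lost the call, 19 gained it and 35 turned sign, in 11 results. Where 1 Control library remained, it was assumed to vary like the others. The cause was not tested.

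In cardiomyocytes Col1a2 turned to -0.11 in tissue libraries alone, and ran from -0.14 to 2.07 with 1 library left out. In fibroblasts Col16a1 turned to -0.0016 with RLE size factors, -0.062 with library totals alone, -0.096 with no covariate, -0.061 in cells without macrophage markers, -0.11 in tissue libraries alone and -0.11 with at least 30 cells. Col1a1 turned to -0.033 with no covariate, -0.38 in tissue libraries alone and -0.38 with at least 30 cells. In these last 2 settings Col14a1 was -0.14 and -0.14, Col1a2 -0.13 and -0.13, and Col5a2 -0.33 and -0.33. With 1 library left out the fibroblast values ran from -1.43 to 3.01 for Col12a1, -0.14 to 0.92 for Col14a1, -0.39 to 0.55 for Col16a1, -0.38 to 1.91 for Col1a1, -0.13 to 1.94 for Col1a2, -0.33 to 1.69 for Col5a2, -3.31 to 1.27 for Col6a6 and -1.10 to 6.78 for Col9a2. In CF4 Col12a1 ran from -1.70 to 7.68, and the cardiomyocyte minus fibroblast value of Col9a2 from -0.97 to 5.56.

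No paired analysis was possible because the cell table numbers the YAP5SA tissue libraries 1 and 2 while the labels number them 2 and 3, so a replicate block could not be assigned. Collagens under 100 UMIs are limited by depth.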
